A study of Rattus norvegicus with 12 samples.

Results

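This account covers 1 comparison, between unstimulated rats in which 6-OHDA was used to model Parkinson's disease (PD) and unstimulated control rats, in the motor cortex. Libraries were taken into it by title: 3 PD rats and 3 control rats, 6 of the 12 libraries of the series. The remaining 6 came from stimulated PD and stimulated control rats, 3 each, which received cortical stimulation by a graphene array placed at the primary motor cortex, on a stated schedule of 130 Hz for 1 hour a day over 2 weeks. In the titles, rats carry a number from 1 to 3 within each group, which is used here, and each library is 1 rat. In the short descriptions the numbers of PD rats do not start at 1, and those of stimulated PD rats skip a number. Strain, sex, age, the injected side and site, the time after 6-OHDA, and whether unstimulated rats carried an array or had a sham operation are not stated in any source used here. Rats labelled control and PD are therefore described only by those labels; lesioned stands for the 6 rats of both PD groups, and unlesioned for the 6 rats of both control groups.

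6-OHDA (6-hydroxydopamine) is a toxin that dopamine and noradrenaline neurons take up through their transporters and that kills them by oxidation. Dopamine loss in the striatum changes the output of the basal ganglia to the thalamus, and through it the activity of the motor cortex, which also receives a sparse dopamine input of its own. The toxin is given to the brain as a local injection and is the classic way of making a rat parkinsonian, and motor cortex neurons are not themselves the cells it is meant to kill.

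The level of each feature was given as CPM, which is counts per 1000000 counted reads of a library. PD libraries held between 47165351 and 62082830 counted reads, control libraries between 42905441 and 55682422, so that 1 CPM stood for more than 40 reads in each library. The table names its features by Ensembl rat gene identifier, and 0 of the 16534 identifiers could be paired with a gene symbol. The gene reference at hand held no Ensembl identifiers, so this is a limit of the reference and not of the data. Cell types, pathways and the check of the tissue against its markers are for this reason not analysed here, and no more than 2 identifiers are printed in each direction. No promoter sequence could be tied to a feature either, so none is shown. In bulk tissue, fewer cells of a type and less RNA per cell cannot be told apart.

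With CPM as deposited, far more features were called lower than higher in the motor cortex of PD rats, and the called falls were larger. Of the 14985 features that averaged 0.5 CPM or more and were tested, 615 (4.1%) fell and 42 (0.28%) rose, by limma on log2(CPM + 0.5) with Benjamini-Hochberg adjusted p under 0.05. A fold change on this scale understates the change of low features. The log2 fold change of the falls had a median of -1.16, and an interquartile range of -1.69 to -0.84. For the rises the median was 0.68 and the same range 0.53 to 0.90. The median over all features tested was -0.11. Among the falls, 106 exceeded 4-fold and 22 exceeded 8-fold, against 2 and 1 among the rises. The weakest fall called was -0.41 and the weakest rise 0.36 on the log2 scale. The SE of the called falls had a median of 0.25, against 0.15 for the called rises. A feature with a larger SE needs a larger change to be called, so the 2 sizes are not compared on equal terms.

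The features that fell were of moderate abundance. They had a median of 16.1 CPM in control and 5.52 CPM in PD rats, against a median of 22.1 CPM for all features tested. In 86 of the 615 the mean went from at least 1 CPM in control to under 1 CPM in PD rats, and in 3 of these it started at 10 CPM or more. A change in the other direction across 1 CPM was seen for 3 of the 42 features that rose. In 40 of the features that fell, at least 1 PD library held under 10 reads, and the lowest held 1 read, so their levels in PD rats carry counting error. The features that rose had a median of 22.0 CPM in control and 35.2 CPM in PD rats.

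Rescaling the libraries changed how many features were called in each direction, but with all libraries the falls were the larger group under each scaling. TMM factors, which assume that most features do not change, lay between 0.895 and 0.984 for PD libraries and between 1.02 and 1.06 for controls, and moved the median change over all tested features from -0.11 to 0.03 on the log2 scale. With TMM scaling 358 features (2.39%) fell and 94 (0.627%) rose. All 358 were among the 615 that fell as deposited, 58.2% of them, and all 42 features that rose as deposited were among the 94. Falls were 93.6% of calls as deposited and 79.2% with TMM factors, and 68.7% where the factors were computed from all features of the table, with 349 falls and 159 rises. With TMM scaling 78 falls and 2 rises exceeded 4-fold. At an unadjusted p under 0.05 by limma, 1950 features fell and 1616 rose with TMM factors. After quantile normalization 1668 fell and 1918 rose at that threshold. The balance of TMM calls turned without PD rat 3, with 453 falls and 514 rises, and without control rat 1, where 3 falls and 4 rises were left.

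**Figure D1:**
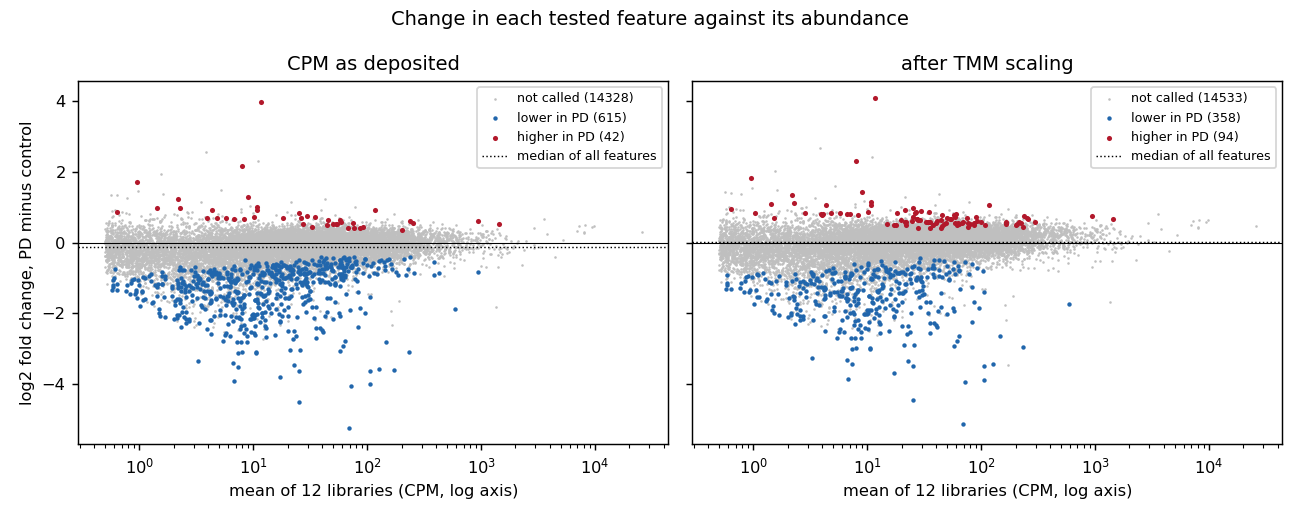
Log2 fold change of PD minus control (vertical axis) against the mean CPM of all 12 libraries (horizontal log axis) for 14985 features, with CPM as deposited on the left and after TMM scaling on the right; blue and red points are features with an adjusted p under 0.05 and the dotted line is the median of all features. On the left 615 features are lower and 42 higher, on the right 358 and 94, and the falls reach further from 0 than the rises in both panels.

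The same lean was seen without a test. As deposited, all 3 PD libraries lay below all 3 control libraries for 3485 features (23.3%) and above them for 870 (5.81%). With TMM scaling the counts came close to each other, at 2310 (15.4%) below and 1993 (13.3%) above, and after quantile normalization there were 1977 below and 2363 above. The direction of the many small separations thus turned on scaling. Wide separations did not. The highest PD library lay more than 2-fold below the lowest control library, on the log2(CPM + 0.5) scale, for 176 features as deposited, 131 with TMM factors and 79 after quantile normalization. The reverse held for 3, 4 and 8 features.

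Under TMM scaling the falls came from low and middle abundance. Of 3255 features with a mean below 5 CPM, 100 fell and 13 rose, and of 7271 between 5 and 50 CPM, 224 fell and 45 rose. Among the 4459 at 50 CPM and above, 34 fell and 36 rose. The median log2 fold change of these 3 classes was -0.17, 0.03 and 0.11 with TMM scaling, so that abundant features leaned upward while the lowest leaned downward. As deposited 104 fell and 16 rose in the most abundant class, and its median was -0.04.

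Reads of PD libraries were held by fewer features. The 100 most abundant features of each library took 23.1%, 25.1% and 22.9% of reads in PD rats 1, 2 and 3, and 21.2%, 21.5% and 20.7% in control rats 1, 2 and 3. PD and control rats did not overlap on this measure (difference 2.55 percentage points, p = 0.1 by a two-sided exact permutation test, which with 3 rats a group can give no smaller value). The number of features that together held 50% of the reads was 810, 734 and 835 in PD rats and 969, 932 and 911 in control rats (exact permutation test, two-sided, p = 0.1). Of the 10 most abundant features over all libraries, 9 had a positive estimate in PD rats both as deposited and with TMM factors, and 0 passed by limma under either scaling, with 4 and 5 at an unadjusted p under 0.05; edgeR called 1 of them and DESeq2 called 7, all higher. These 10 took 10.5% of reads in PD and 8.37% in control rats.

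Each PD rat carried the change, and PD rat 2 carried it furthest. Over the 615 features that fell, the median log2 difference from the control mean was -1.04 in PD rat 1, -1.40 in PD rat 2 and -1.08 in PD rat 3. Control rats 1, 2 and 3 stood at 0.18, -0.05 and -0.15 on this measure, so control rat 1 was the highest. PD rat 2 was the lowest of the PD rats for 411 of the 615, and control rat 1 the highest of the controls for 435. Over the 42 features that rose, PD rats 1, 2 and 3 stood 0.68, 0.74 and 0.50 above the control mean. These features were chosen on the same libraries, so their medians are descriptions.

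The stimulated rats give a reading in libraries that did not choose the features, with the spread of each feature still estimated from all 12 libraries. Relative to the mean of stimulated controls, the 615 features stood at a median of -0.52, -0.36 and -0.88 in stimulated PD rats 1, 2 and 3, where all features tested stood at -0.10, -0.04 and -0.18. The 42 features that rose stood at 0.51, 0.50 and 0.51. With TMM scaling, 335 of the 358 features that fell (93.6%) had a negative estimate in stimulated PD against stimulated control rats, where 51.7% of all features did. Of the 94 that rose with TMM scaling, 93 (98.9%) had a positive estimate, against 48.3% of all features. Of these 358 and 94, 4 and 4 passed the test in the stimulated pair in the same direction, where 0.0467% of all features passed as lower and 0.0334% as higher. As deposited 51 of the 615 and 17 of the 42 passed there, where 1.01% of all features passed as lower and 0.44% as higher. The number called in the stimulated pair turned on scaling: 151 were lower and 66 higher as deposited, 7 and 5 with TMM factors, 165 and 360 with factors from all features, and 268 and 472 after quantile normalization. No feature passed a test of the difference between the 2 pairs by limma (0 of 14985, smallest adjusted p 0.834), so by limma none is shown to change only in unstimulated rats. By limma, 619 features (4.13%) had an unadjusted p under 0.05 for that difference. At an adjusted p under 0.05, edgeR called 0 features and DESeq2 30.

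**Figure D2:**
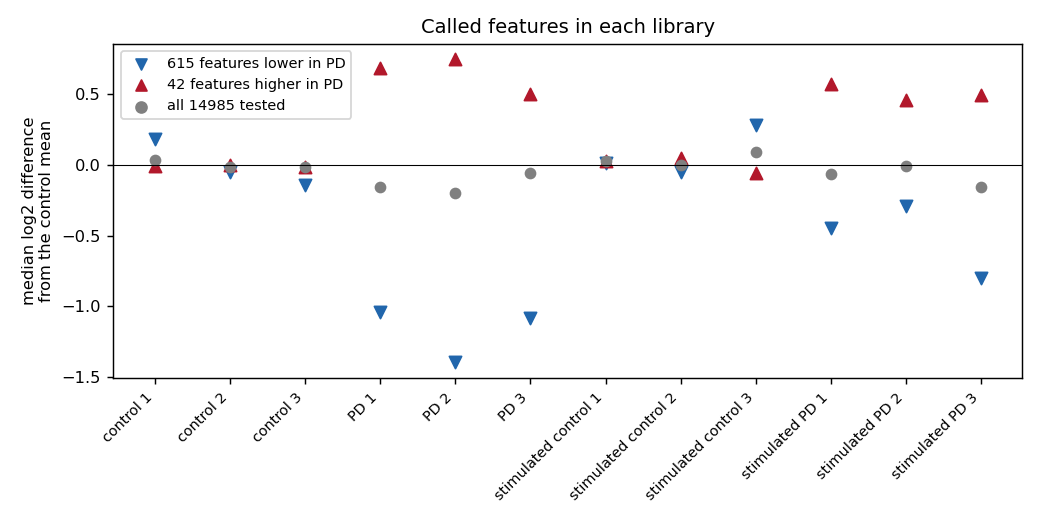
Median log2 difference from the control mean (vertical axis) in each of the 12 libraries (horizontal axis) for the 615 features lower in PD rats (blue), the 42 higher (red) and all 14985 tested (grey), with CPM as deposited. PD rats lie from -1.40 to -1.04 for the lower features and from 0.50 to 0.74 for the higher ones. Stimulated PD rats lie between them and the unlesioned rats for the lower features. The features were chosen on PD and control libraries, which favours large differences there, so this order does not show an effect of stimulation.

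The feature with the largest fall on the log2(CPM + 0.5) scale was ENSRNOG00000016164. It stood at 92.7, 93.7 and 31.1 CPM in control rats 1, 2 and 3 and at 0.509, 0.999 and 2.92 CPM in PD rats 1, 2 and 3. The groups did not overlap, which the rule for naming features required. PD rat 1 rested on 24 reads where control rat 1 had 3979. The mean was 49.2-fold lower in PD rats, and the log2 fold change was -5.24 (SE 1.13, limma adjusted p = 0.0323). In control rats it lay above 78.8% of the features tested and in PD rats above 12.1%. Stimulated PD rats 1, 2 and 3 had 50.8, 192 and 2.52 CPM and stimulated controls 148, 73.1 and 136 CPM. Stimulated PD rat 3 thus lay within the range of the PD rats, and stimulated PD rat 2 above every unlesioned rat. The call was lost without control rat 1, 2 or 3 (adjusted p = 0.146, 0.0998 and 0.0517) and without PD rat 1 or 2 (0.0582 and 0.0879). With a spread for each group it was lost too (limma adjusted p = 0.223). It held with only PD and control libraries in the fit (SE 0.53, limma adjusted p = 0.00564).

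ENSRNOG00000043451 had the next largest fall on this scale, and the order of these 2 features depended on the scale. Its log2 fold change was the larger with a pseudocount of 0.1 CPM (-5.75 against -5.68), by edgeR (-6.20 against -5.46) and by DESeq2 (-6.24 against -5.49). With a pseudocount of 2 CPM it was the smaller (-3.00 against -4.33). DESeq2 gave no p-value for ENSRNOG00000043451. Control rats 1, 2 and 3 held 18.9, 9.21 and 21.0 CPM, and PD rats 1, 2 and 3 held 0.170, 0.130 and 0.290 CPM, on 8, 7 and 18 reads. The groups did not overlap, again as the rule required, and the lowest control library was far above the highest PD library. The log2 fold change was -4.52 (SE 1.08, limma adjusted p = 0.0429), and the group means differed 83.4-fold. Stimulated PD rats held 2.51, 140 and 5.23 CPM and stimulated controls 18.6, 18.2 and 65.7 CPM, so stimulated PD rat 2 again lay above every unlesioned rat. With all 12 libraries in the fit, the test is close to its threshold. The call was lost without any 1 of the 6 PD and control rats, with adjusted p from 0.0569 without PD rat 3 to 0.169 without control rat 1. It was also lost with a pseudocount of 2 CPM (0.103), after quantile normalization (0.0583) and without stimulated control rat 1 or 2 (0.0597 and 0.0524). The same held without a variance trend (0.0501), with the title or description number as a replicate block (0.0661 and 0.113) and with a spread for each group (0.257). With only PD and control libraries in the fit, the call held (SE 0.31, limma adjusted p = 0.00145). For both of these features the difference between unstimulated and stimulated pairs had an adjusted p of 0.834 by limma.

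ENSRNOG00000012067 rose the most. Its level was 0.466, 0.611 and 0.341 CPM in control rats 1, 2 and 3, and 23.3, 19.7 and 6.93 CPM in PD rats 1, 2 and 3. PD rat 3 was the lowest of its group and still lay more than 10-fold above the highest control. The log2 fold change was 3.98 (SE 0.45, limma adjusted p = 0.00795), and 4.10 with TMM scaling. Stimulated PD rats had 14.6, 27.6 and 43.9 CPM against 0.409, 0.688 and 1.24 CPM in stimulated controls (log2 fold change 4.43, SE 0.45, limma adjusted p = 0.00388). All 6 lesioned rats thus lay above all 6 unlesioned rats. The call between PD and control rats held with each of the 12 libraries left out, where the log2 fold change ran from 3.66 to 4.51.

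ENSRNOG00000017286 was the other large rise. It stood at 7.71, 1.63 and 1.46 CPM in control rats 1, 2 and 3 and at 9.46, 22.0 and 13.2 CPM in PD rats 1, 2 and 3. Control rat 1 came close to PD rat 1, while the other 2 controls were far below. The log2 fold change was 2.16 (SE 0.47, limma adjusted p = 0.0323). Stimulated PD rats had 10.3, 14.3 and 10.3 CPM and stimulated controls 1.33, 1.62 and 1.94 CPM (log2 fold change 2.50, SE 0.47, limma adjusted p = 0.0478, and 0.0531 with TMM scaling). No lesioned rat was below an unlesioned rat, but the call between PD and control rats was lost when control rat 2 or 3 was left out (adjusted p = 0.108 and 0.0855), when PD rat 2 or stimulated PD rat 1 was (0.0946 and 0.0514) and with only PD and control libraries in the fit (0.0665).

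**Figure D3:**
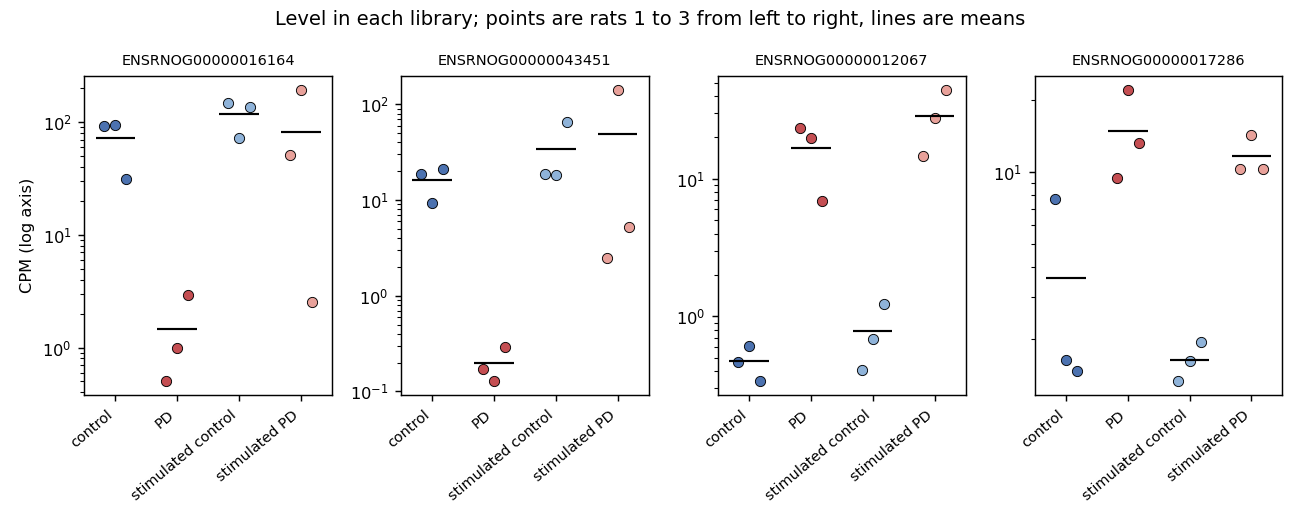
CPM (vertical log axis) of the features with the 2 largest falls and the 2 largest rises, in each rat of the control, PD, stimulated control and stimulated PD groups; lines are group means (n = 3). For both falling features the PD rats lie below every unlesioned rat while stimulated PD rats spread widely. For both rising features all 6 lesioned rats lie above all 6 unlesioned rats. The rule for naming features required that PD and control rats did not overlap.

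Over all features tested, PD rats differed from each other more than control rats did, which bears on the calls above. The SD of a feature among the 3 PD rats had a median of 0.29 on the log2 scale, against 0.13 among control rats, 0.16 among stimulated controls and 0.14 among stimulated PD rats. It was larger in PD than in control rats for 12006 of 14985 features (80.1%), and PD was the most variable of the 4 groups for 60.4% of features. With TMM scaling these values were 80.7% and 60.9%. The median variance was 5.11 times that of control rats. PD rats 1 and 2 were the furthest apart: 12.8% of features differed more than 2-fold between them, against 2.72% between PD rats 1 and 3 and 4.48% between PD rats 2 and 3. The count was 1924, 407 and 671 for these pairs and 202, 300 and 127 for the 3 pairs of control rats. Whether a cell type, RNA quality or a batch moves with this spread was not tested, since no marker could be named and the labels give no batch.

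**Figure D4:**
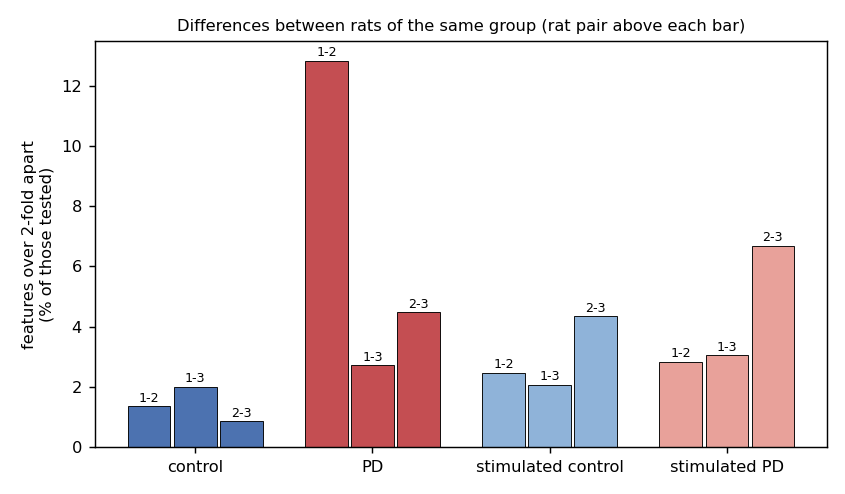
Percent of 14985 tested features that differ more than 2-fold (vertical axis) between the 2 rats of each pair within a group, with the rat numbers above each bar. The pair of PD rats 1 and 2 stands at 12.8%, and the control pair furthest apart has 300 such features against its 1924.

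The test used for the counts gives all 4 groups the same spread. When each group was given a spread of its own by array weights, an alternative chosen after seeing the data, 0 features passed by limma between PD and control rats, as deposited and with TMM factors. The weights of this fit were estimated from all features tested, and PD and control rats differed less in spread among the 615 falls. All 615 falls and all 42 rises had an unadjusted p under 0.05 in that fit as deposited, among 2247 such features. These features were chosen for a small p on the same libraries, and their log2 fold changes are the same in both fits. The count therefore gives them no further support. The limma adjusted p of ENSRNOG00000012067 was 0.0670 with a spread for each group. edgeR, which estimates 1 dispersion a feature for all groups, called 369 falls and 106 rises on the recovered reads, and DESeq2 called 1140 and 897. Without control rat 1 the limma fit with a common spread called 2 falls and 2 rises, without control rat 2 it called 50 and 2, and without PD rat 2 it called 79 and 7. The median log2 fold change of the 615 ran from -1.22 to -1.04 with 1 PD or control library left out. Of the calls, 2 falls and 1 rise, ENSRNOG00000012067, passed in each of the 12 fits that leave out 1 library.

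**Figure D5:**
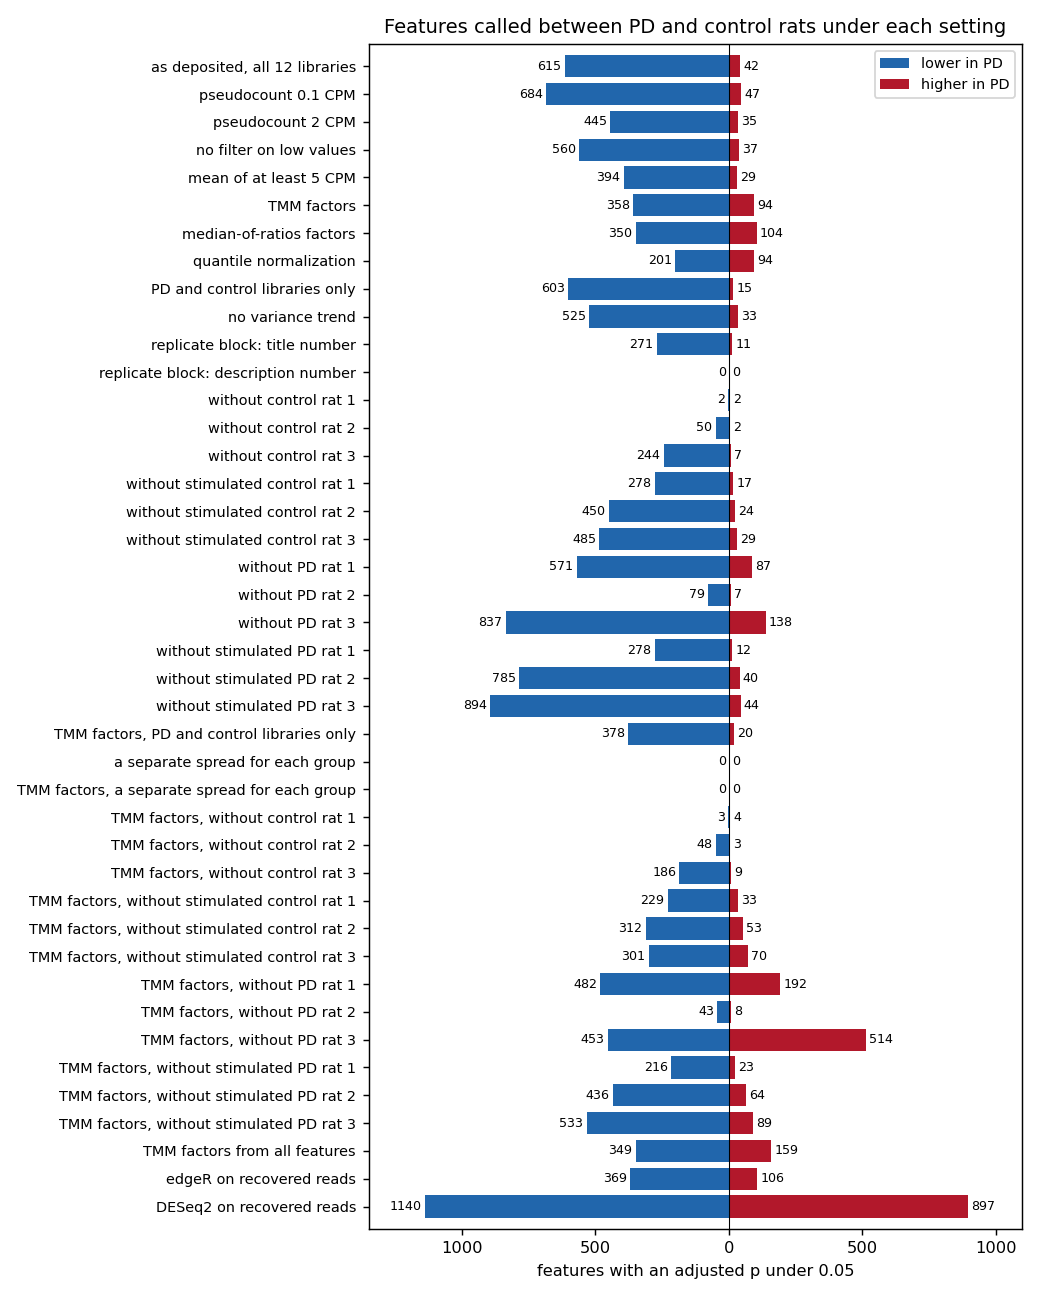
Number of features lower (blue, to the left) and higher (red, to the right) in PD than in control rats at an adjusted p under 0.05 (horizontal axis) for each scaling, filter, tool, replicate block and left-out rat that was run (vertical axis). Counts run from 0 and 0 with a separate spread for each group to 1140 and 897 by DESeq2, and rises outnumber falls with TMM factors without PD rat 3 (453 falls, 514 rises) and without control rat 1 (3 and 4).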

How the data were processed

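Per the labels' protocols, libraries came from a stranded mRNA kit. The submitters' processing notes list Trim Galore, STAR, featureCounts and mRatBN7.2 and give no versions. Annotation release, strandedness of counting and normalization software: not given in the sources used here. As a unit, the authors deposited CPM for 16534 features. Every value was a whole multiple of 1 step per library (100% within 0.001 read), which gave back whole reads; no value is 0, and 0 columns were left unmatched.

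limma (version 3.58.1, R 4.3.3) was run on log2(CPM + 0.5) for features averaging 0.5 CPM or more, with 1 coefficient per group, all 12 libraries, a trended prior variance and 8 residual degrees of freedom. P-values are two-sided, adjusted by Benjamini-Hochberg over 14985 features, and called under 0.05. The procedure was tested on simulated counts with the same dispersion in all groups and no shift in scaling between libraries. That test therefore does not cover the larger spread of PD rats or the differences in scaling seen here. Alternatives were pseudocounts of 0.1 and 2 CPM, no filter or 5 CPM, TMM, median-of-ratios and quantile scaling, edgeR 4.0.16 and DESeq2 1.42.0 on recovered reads, PD and control libraries only, no variance trend, replicate blocks, and leaving out each library.

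Features named have an adjusted p under 0.05, at least 1 CPM in the higher group, no overlap between groups and the largest change; without symbols, 2 per direction were printed. The 47 gene lists drawn up could not be matched to identifiers and are not analysed here. The comparison and lists were chosen with earlier results of these data known.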

Additional observations from a re-analysis of the deposited data

How the results depend on the processing

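As deposited, 615 features fell and 42 rose in PD rats. With a minimum mean of 5 CPM, 394 fell. TMM factors gave 358 falls and 94 rises, the same factors taken from all features gave 349 and 159, median-of-ratios factors 350 and 104, and quantile normalization 201 and 94. edgeR gave 369 and 106, and DESeq2 1140 and 897. With only PD and control libraries fitted there were 603 falls and 15 rises as deposited. Of these, 372 falls were among the 615 and 8 rises among the 42. The same fit with TMM factors gave 378 falls and 20 rises. A spread for each group gave 0 and 0, as deposited and with TMM factors, with 2247 and 2235 features at an unadjusted p under 0.05 by limma. The array weight of PD libraries in that fit was 0.329, against 1.89 for control libraries. These weights came from all features tested and need not match the spread of the called features. Leaving out 1 library gave 2 to 894 falls and 2 to 138 rises as deposited, and 3 to 533 falls and 3 to 514 rises with TMM factors. Those counts were low without control rat 1 (2 and 2 as deposited, 3 and 4 with TMM factors), control rat 2 (50 and 2, 48 and 3) or PD rat 2 (79 and 7, 43 and 8). Fits with a spread for each group, with TMM factors from all features, with TMM factors and 2 groups only, and with TMM factors and 1 library left out were added after seeing the data.

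With the rat number of the title as a replicate block, 271 features fell and 11 rose, and with the number of the short description 0 and 0 passed by limma, with 2962 at an unadjusted p under 0.05. By title number, the deviations of same-numbered control and PD rats had r of -0.14, -0.29 and -0.12 across features. The short description gave them 2 shared numbers (r = 0.16 and 0.06). Control and PD rats with unlike title numbers had r from -0.10 to 0.25. Deviations from a mean of 3 rats depend on each other, so these values cannot show whether same-numbered rats shared a batch. In the labels they share only a number.

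ENSRNOG00000012067 was called in 38 of 41 alternatives, ENSRNOG00000016164 in 27 of 41, ENSRNOG00000017286 in 28 of 41 and ENSRNOG00000043451 in 16 of the 40 that gave an adjusted p. In the stimulated pair ENSRNOG00000043451, which was not called there, turned from -1.09 to 0.61 on the log2 scale by edgeR and to 0.10 with TMM factors and without stimulated PD rat 1, where leaving out 1 library gave -2.79 to 0.10 over both scalings; the cause was not tested. The gene lists had no identifiers to work on, so their alternatives were not run. Depth limits the low end: 7 to 18 reads stand behind ENSRNOG00000043451 in PD rats.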
